A study of Mus musculus with 3 samples.

Results

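The eicosanoid synthesis genes described here are 10 genes that turn arachidonic acid into leukotrienes, hydroxylated fatty acids, prostaglandins, prostacyclin and thromboxane: Alox15, Alox5, Alox5ap, Lta4h, Ltc4s, Ptgs1, Ptgs2, Ptges, Ptgis and Tbxas1. They were chosen by name, as every non-control probe that carried one of these symbols, directly or through the accession on the array. This gave 15 probes in 24 spots, out of 41174 probes on the array. In 9 of the 10 genes a probe was well above background on all 3 arrays, and Ptgs2 was the exception. Across the array, 14562 genes had a probe well above background on at least 1 array.

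RNA from peritoneal lavage cells of male Swiss albino mice aged 8 weeks was hybridised to Agilent whole genome mouse arrays with 1 dye. Every mouse, controls included, had received 125 µg of lipopolysaccharide (LPS, a bacterial cell wall component that draws macrophages into the peritoneum) by intraperitoneal injection on day 0. On day 4 the TPA-only group was injected with 100 ng of 12-O-tetradecanoylphorbol 13-acetate (TPA, a phorbol ester tumour promoter), and the other groups with the same TPA plus 35 nmol or 70 nmol of potassium dichromate, a source of hexavalent chromium. Cells were harvested 4 days later, from groups of 10 mice. The sample titles give the doses as nmole of Cr(VI) and the protocol as nmol of the dichromate salt. Lipoic acid, which the protocol also mentions, was given in no group analysed here.

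Each group was 1 array, and the labels do not settle whether its RNA came from 1 mouse or a pool. No spread between mice, no test and no p-value is therefore available, and every difference below is between single arrays. Slide position could not be told apart from group, because the 3 arrays were hybridised side by side on 1 slide. A level is the log2 of a probe's background-corrected intensity over the array's 75th percentile, so 0 is the 75th percentile. The error given with a difference is the scanner software's own error for the spots, which covers neither mice nor hybridisations. It was 0.144 to 0.147 log2 per array for every measured member probe. The ± values near 0.20 are thus close to a constant, and not a spread observed for each gene. Across repeated spots of a probe, the median standard deviation was 0.043, 0.043 and 0.034 log2 on the TPA-only, 35 nmol and 70 nmol arrays. A gene was measured in a comparison where its probe was well above background and unsaturated on both arrays, and 2-fold (1 log2 unit) was used as the size to count. On the TPA-only, 35 nmol and 70 nmol arrays, 20200, 18907 and 18564 probes were well above background. The label "macrophage" was checked on 7 general macrophage markers, all of which were well above background on all 3 arrays, and the 6 unsaturated ones had a summed level of 250.4, 248 and 257 times the 75th percentile on the TPA-only, 35 nmol and 70 nmol arrays (Lyz2 was saturated). B cell markers were also present, with 7 of 7 well above background on every array. Their summed level over all 7 was 261, 253 and 205 times the 75th percentile on the TPA-only, 35 nmol and 70 nmol arrays. With the saturated Lyz2 kept, the general macrophage sum read 484, 555 and 554 on the same arrays. Sums over different probes do not compare the amounts of these cell types. In such bulk RNA, fewer cells of a type and less RNA per cell cannot be told apart.

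Eicosanoids are made on demand from arachidonic acid that phospholipases release from membranes. Lipoxygenases open one branch: 5-lipoxygenase, with its partner protein FLAP, makes leukotriene A4, which is converted to the neutrophil attractant leukotriene B4 or to the cysteinyl leukotrienes, and 12/15-lipoxygenase, abundant in resident peritoneal macrophages of the mouse, makes hydroxylated fatty acids and precursors of lipid mediators that help to end inflammation. Cyclooxygenases open the other branch, and terminal synthases then decide whether prostaglandin E2, prostacyclin or thromboxane is formed.

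Among the 9 measured genes, Alox15 and Ptgis were at least 2-fold lower on the 70 nmol array than on the TPA-only array, and no gene was at least 2-fold higher. Over all 12541 genes measured in that comparison, 1.08% were at least 2-fold lower and 1.63% at least 2-fold higher. At 35 nmol no gene of the 9 passed 2-fold in either direction against TPA only, where the background was 0.299% lower and 1.12% higher of 12730 genes. Between the doses, Alox15 was the only one of the 9 at least 2-fold lower at 70 nmol than at 35 nmol, and none was at least 2-fold higher, against 0.718% lower and 0.92% higher of 12387 genes. The median difference of the 9 genes was −0.12 log2 at 70 nmol against TPA only, 0.07 at 35 nmol against TPA only and −0.21 at 70 nmol against 35 nmol. The medians over all measured genes in the same comparisons were 0.04, 0.04 and 0.00. The comparisons share arrays, so they are not independent of each other.

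**Figure D1:**
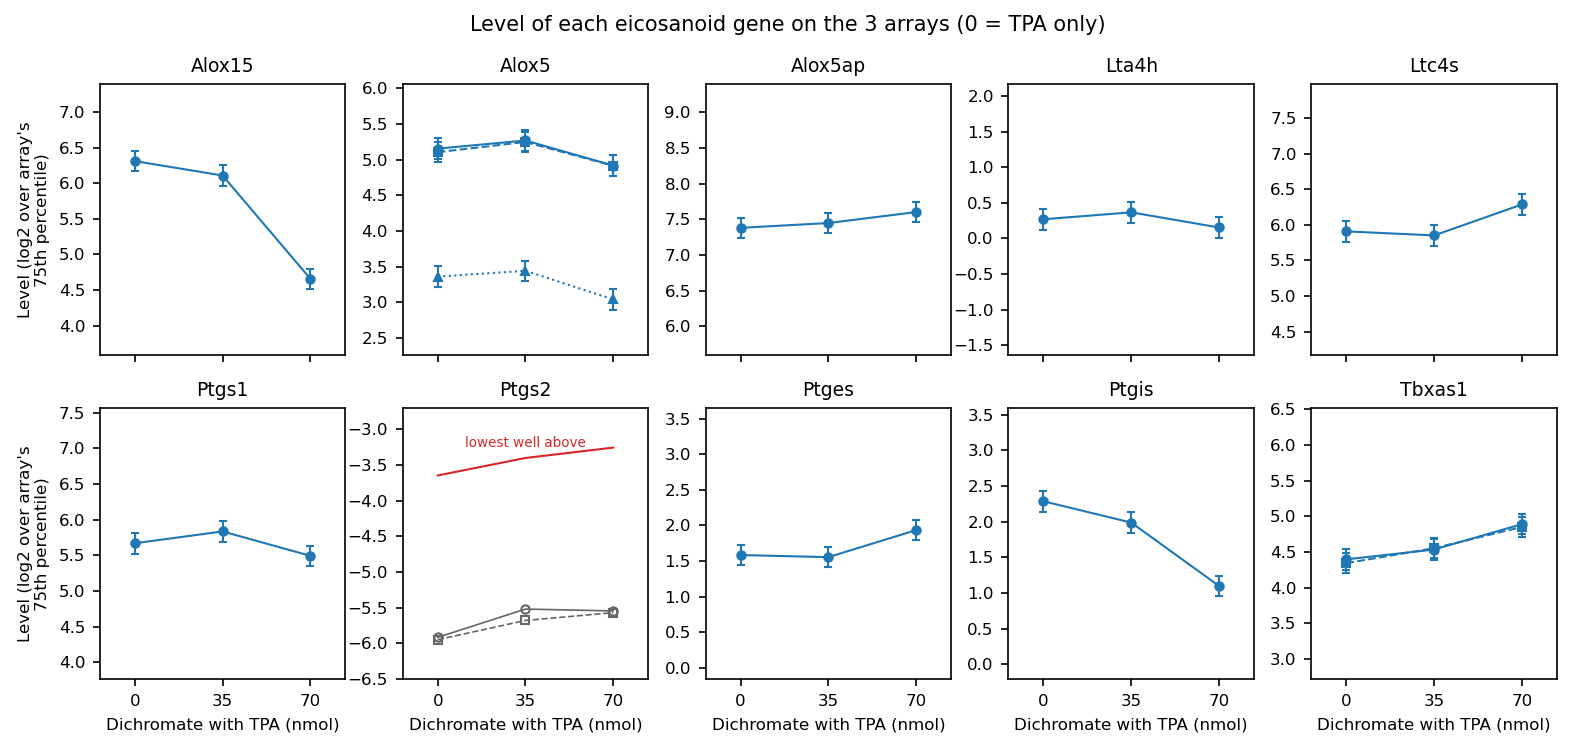
Level of each gene on the 3 arrays, as log2 signal over the array's 75th percentile, against the dichromate dose given with TPA (0 is TPA only). Blue points are probes well above background with the scanner error, 1 line per probe (the dim Tbxas1 probe is not drawn), and every panel spans the same number of log2 units. Alox15 stands at 6.31 and 6.11 at 0 and 35 nmol and at 4.66 at 70 nmol, and both Ptgs2 probes (open symbols) lie below the lowest level that was well above background (red line).

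Alox15, the 12/15-lipoxygenase, had a level of 6.31 on the TPA-only array, 6.11 on the 35 nmol array and 4.66 on the 70 nmol array, from a background-corrected intensity of 21342, 14185 and 5414. The 70 nmol array thus stood apart, and the other arrays lay within the scanner error of a difference. Against TPA only the difference was −1.65 ± 0.20 log2 at 70 nmol (3.14-fold lower) and −0.20 ± 0.20 at 35 nmol. The difference at 70 nmol against 35 nmol was −1.45 ± 0.20 (2.73-fold lower). Among the 12541 genes measured at 70 nmol against TPA only, Alox15 had the 20th lowest difference. At 35 nmol it ranked 1797 from the lowest of 12730, well inside the bulk of genes. Its single probe was mapped by the array files to chromosome 11, 70161808 to 70162032, on the minus strand of mouse build mm8. That interval of 225 bases is longer than the 60 bases that most probes span.

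Alox5, the 5-lipoxygenase, was covered by 3 probes on chromosome 6 (mm8), which followed the same order over the arrays. The brightest of them had a level of 5.16 on the TPA-only array, 5.27 on the 35 nmol array and 4.92 on the 70 nmol array. Highest at 35 nmol and lowest at 70 nmol, it differed by −0.24 ± 0.20 log2 at 70 nmol and by 0.11 ± 0.20 at 35 nmol from TPA only. A second probe gave −0.19 and 0.14, and the third −0.32 and 0.08, so the probes differed among themselves by at most 0.13 at 70 nmol and 0.06 at 35 nmol. For comparison, the median gap between both probes of genes measured by a pair of probes was 0.16 at 70 nmol. None of the 3 probes reached 2-fold, in contrast to the other lipoxygenase gene, Alox15.

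Alox5ap encodes FLAP, the membrane protein that presents arachidonic acid to 5-lipoxygenase. Its level was 7.38 on the TPA-only array, 7.45 on the 35 nmol array and 7.60 on the 70 nmol array. The arrays thus differed by little more than the scanner error, with 0.22 ± 0.20 log2 at 70 nmol and 0.07 ± 0.20 at 35 nmol against TPA only. Scaling on spike-in transcripts turned both signs, to −0.14 at 70 nmol and −0.35 at 35 nmol.

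The enzymes after leukotriene A4 gave differences of opposite sign at 70 nmol, neither of them 2-fold. Ltc4s, which joins leukotriene A4 to glutathione to make leukotriene C4, had a level of 5.91 on the TPA-only array, 5.85 on the 35 nmol array and 6.29 on the 70 nmol array. Its difference from TPA only was 0.38 ± 0.20 log2 at 70 nmol and −0.06 ± 0.20 at 35 nmol. Lta4h, the hydrolase that makes leukotriene B4, had levels of 0.27, 0.37 and 0.15 on the TPA-only, 35 nmol and 70 nmol arrays. These lay within 1 scanner error of each other against TPA only, at −0.12 ± 0.21 for 70 nmol and 0.10 ± 0.21 for 35 nmol. The Lta4h probe spanned 398 bases of chromosome 10 on mm8, the longest interval among the 15 probes.

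The cyclooxygenases differed in whether they were detected at all. Ptgs1, the constitutive enzyme COX-1, had a level of 5.67 on the TPA-only array, 5.83 on the 35 nmol array and 5.49 on the 70 nmol array. Ptgs2, the enzyme COX-2 that LPS and phorbol esters are known to induce within hours in macrophages, was not well above background in either of its probes on any array. One of its probes was printed in 10 spots, and its level was −5.92, −5.52 and −5.55 on the TPA-only, 35 nmol and 70 nmol arrays, against a lowest well-above-background level of −3.65, −3.40 and −3.26. The second Ptgs2 probe read −5.95, −5.68 and −5.57. Harvest was 4 days after TPA, and an earlier time was not measured. No fold was computed for Ptgs2, since it was not well above background on any array. For Ptgs1 the difference from TPA only was −0.18 ± 0.20 log2 at 70 nmol and 0.17 ± 0.20 at 35 nmol, both within the scanner error, and it was −0.34 ± 0.20 at 70 nmol against 35 nmol.

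The RefSeq promoter windows of both cyclooxygenase genes are shown because one of the genes was measured on every array and the other on none. Each runs from 250 bases before to 30 bases after the annotated start in GRCm38.p6, 5′ to 3′ on the plus strand, Ptgs1 at chr2:36230176-36230455 and Ptgs2 at chr1:150099781-150100060. Capitals mark matches on either strand to 6 motifs: the TPA response element TGAGTCA, the cyclic AMP response core TGACGT, the C/EBP palindrome TTGCGCAA, the E-box CACGTG, the GC box GGGCGG and the TATA box TATAAA.
Ptgs1: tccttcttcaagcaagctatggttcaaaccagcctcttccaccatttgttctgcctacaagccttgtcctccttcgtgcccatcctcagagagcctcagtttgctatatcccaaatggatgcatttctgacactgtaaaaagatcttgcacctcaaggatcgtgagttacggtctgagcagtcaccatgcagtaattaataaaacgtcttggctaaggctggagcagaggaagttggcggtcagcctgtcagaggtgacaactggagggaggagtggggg
Ptgs2: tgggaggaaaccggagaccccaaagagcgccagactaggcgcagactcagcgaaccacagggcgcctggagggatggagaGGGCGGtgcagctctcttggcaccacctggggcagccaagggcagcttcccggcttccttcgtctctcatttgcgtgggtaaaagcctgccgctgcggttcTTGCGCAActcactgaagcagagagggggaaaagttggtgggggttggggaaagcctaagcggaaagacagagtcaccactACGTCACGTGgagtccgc
The Ptgs1 window held none of the 6 motifs. The Ptgs2 window held 1 GC box, 1 C/EBP palindrome, and 1 cyclic AMP response core that overlapped 1 E-box. The GC box began at −170 and the C/EBP palindrome at −69, before the annotated start. The cyclic AMP response core and the E-box began at 13 and 17, after that start. Bases beyond the window's end were not searched. Of all 32851 promoter windows of this length in the RefSeq table, 34.7% held the GC box, 0.18% the C/EBP palindrome, 7.26% the cyclic AMP response core, 6.79% the E-box, 4.94% the TPA response element and 13.1% the TATA box. Windows were found for 7 of the 10 genes, and none of the 7 held the TPA response element. A match is a description of the letters, and no binding was measured.

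Ptgis, prostacyclin synthase, had a level of 2.29 on the TPA-only array, 1.99 on the 35 nmol array and 1.10 on the 70 nmol array. The order was the same as for Alox15, with the 70 nmol array lowest. Its difference from TPA only was −1.19 ± 0.20 log2 at 70 nmol (2.28-fold lower), the 82nd lowest of 12541 genes, and −0.30 ± 0.20 at 35 nmol. Between the doses it was −0.89 ± 0.20, or 1.85-fold lower at 70 nmol, short of 2-fold. The probe lay at chromosome 2, 166898010 to 166898069, on mm8.

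The remaining terminal synthases were higher at 70 nmol than in TPA only, by less than 2-fold. Ptges, the inducible prostaglandin E synthase that usually works with COX-2, had a level of 1.59 on the TPA-only array, 1.56 on the 35 nmol array and 1.93 on the 70 nmol array. Its difference from TPA only was 0.35 ± 0.20 log2 at 70 nmol and −0.03 ± 0.20 at 35 nmol, and with spike-in scaling the value at 70 nmol became −0.01. Tbxas1, thromboxane synthase, was read by a pair of neighbouring probes with levels of 4.40 and 4.34 on the TPA-only array, 4.53 and 4.55 on the 35 nmol array, and 4.89 and 4.85 on the 70 nmol array. Both probes were lowest in TPA only and highest at 70 nmol, with differences of 0.49 ± 0.20 and 0.51 ± 0.20 at 70 nmol and 0.14 ± 0.20 and 0.21 ± 0.20 at 35 nmol. With spike-in scaling the brighter probe stood at 0.13 at 70 nmol and −0.28 at 35 nmol, so TPA only was no longer the lowest array. The third Tbxas1 probe, at chromosome 6, 38958267 to 38958326 on mm8, was not well above background on any array. In the ranking of all genes at 70 nmol against TPA only, Tbxas1 stood at the percentile 92.3, Ltc4s at 88.3 and Ptges at 86.9, against 0.646 for Ptgis and 0.152 for Alox15.

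**Figure D2:**
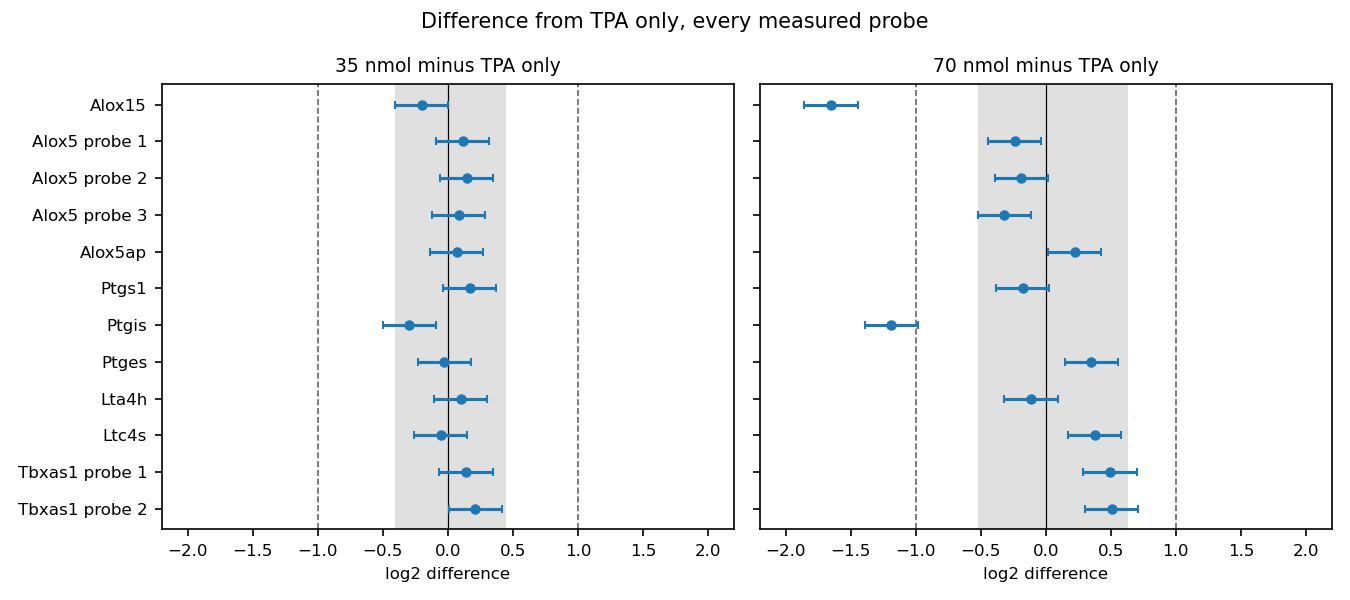
Difference from TPA only in log2 units for every measured probe, at 35 nmol (left) and 70 nmol (right). Bars are the scanner error, the grey band holds the middle of all measured genes from the 5th to the 95th percentile (−0.40 to 0.43 at 35 nmol and −0.51 to 0.62 at 70 nmol), and dashed lines mark 2-fold. At 70 nmol Alox15 and Ptgis lie left of the band and of the 2-fold line, and at 35 nmol all probes lie inside the band.

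The sign of several small differences depended on the scaling, and those of Alox15 and Ptgis did not. Scaling on 4 spike-in probes in place of the 75th percentile moved the median of all genes by −0.36 log2 at 70 nmol and by −0.42 at 35 nmol against TPA only, and by 0.06 between the doses. With it, Alox15 stood at −2.01 and Ptgis at −1.55 at 70 nmol against TPA only. Among all genes past 2-fold against TPA only, the share that was higher was 17.9% with spike-ins and 60.0% with the 75th percentile at 70 nmol, and 22.0% with spike-ins and 79.0% with the 75th percentile at 35 nmol. At 35 nmol Alox5, Alox5ap, Lta4h, Ptgs1 and Tbxas1 had positive differences with the 75th percentile and negative ones with spike-ins. Over all 9 alternatives of scaling, background, filter, probe summary and source, the difference at 70 nmol against TPA only ran from −2.01 to −1.65 for Alox15 and from −1.55 to −1.10 for Ptgis.

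Other genes of the pathway were read from 7 lists of 56 genes in all. At 70 nmol against TPA only, 32 were measured, of which 1 was higher and 1 lower by 2-fold or more, with a median of −0.10 log2. At 35 nmol against TPA only, 33 were measured, 2 at least 2-fold higher and none lower, with a median of 0.04. Between the doses 32 were measured, of which 3 were at least 2-fold lower at 70 nmol than at 35 nmol and none higher. Over all measured genes, 1.63% were higher and 1.08% lower at 70 nmol against TPA only, with a median of 0.04. At 35 nmol the shares were 1.12% and 0.299%, with a median of 0.04, and between the doses 0.92% and 0.718%. The 1 lower gene at 70 nmol was Slco2a1, whose second probe did not reach 2-fold.

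Upstream of the enzymes, 6 of 12 phospholipase genes were measured and none reached 2-fold. Pla2g7, a phospholipase that degrades platelet-activating factor, had the difference furthest from 0 at 70 nmol, −0.42 log2, and stood at −0.35 at 35 nmol, where Pla2g12a, a secreted phospholipase, was furthest from 0 at 0.36. Of 5 other lipoxygenase genes only Alox12e, an epidermal-type 12-lipoxygenase of the mouse, was measured, near background, at −2.76, −1.81 and −3.03 on the TPA-only, 35 nmol and 70 nmol arrays. It was highest at 35 nmol, by 0.95 log2 over TPA only, and its difference at 70 nmol against 35 nmol was −1.22.

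The receptors held the difference from TPA only that was furthest from 0 among the measured genes of these 7 lists. Ltb4r1, the high-affinity receptor for leukotriene B4 on leukocytes, had 1 probe, with a level of 2.84 on the TPA-only array, 3.70 on the 35 nmol array and 4.64 on the 70 nmol array. It was higher at each dose step, by 0.86 log2 at 35 nmol and by 1.80 at 70 nmol over TPA only (3.48-fold). The other 4 measured genes of the 7 leukotriene and lipoxin receptors lay between −0.40 and 0.24 at 70 nmol. Of 9 prostanoid receptor genes 5 were measured and none reached 2-fold. Their median was 0.49 log2 at 70 nmol and −0.07 at 35 nmol, with 0.65 for the prostacyclin receptor Ptgir, 0.54 for the prostaglandin E2 receptor Ptger2 and −0.65 for the prostaglandin E2 receptor Ptger4 at 70 nmol. The second Ptgir probe gave 0.22.

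Removal of prostaglandins involves uptake and oxidation. Slco2a1, the prostaglandin transporter, had a level of 0.03 on the TPA-only array, −0.17 on the 35 nmol array and −1.27 on the 70 nmol array. Its difference at 70 nmol was −1.30 log2 against TPA only (2.46-fold lower), but a second probe of the gene gave −0.43, so the probes disagree on whether 2-fold was passed. Hpgd, the dehydrogenase that inactivates prostaglandins, had a level of −3.09 on the TPA-only array, −1.55 on the 35 nmol array and −3.13 on the 70 nmol array. It was 1.54 log2 (2.91-fold) higher at 35 nmol than in TPA only. At 70 nmol it was not well above background, which put the 70 nmol array at least 2.98-fold lower than the 35 nmol array. The bound takes as the dim level whichever was greater, the probe's own reading or the array's lowest well-above-background level. Ephx2, the soluble epoxide hydrolase, had levels of −2.56, −1.13 and −2.82 on the TPA-only, 35 nmol and 70 nmol arrays. It was 1.43 log2 higher at 35 nmol than in TPA only, and its difference at 70 nmol was −0.26 against TPA only and −1.69 against 35 nmol.

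Hpgd, Ephx2 and Alox12e were all highest on the 35 nmol array, as were the 7 hepatocyte markers. The summed level of that list was 21.3, 65.5 and 0.398 times the 75th percentile on the TPA-only, 35 nmol and 70 nmol arrays, and 7 of 7 were at least 2-fold higher at 35 nmol than in TPA only. On the 70 nmol array 5 of the 7 hepatocyte markers were not well above background, and Alb, serum albumin, differed by −6.09 log2 from TPA only. The part of this signal in the 3 genes was not tested.

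**Figure D3:**
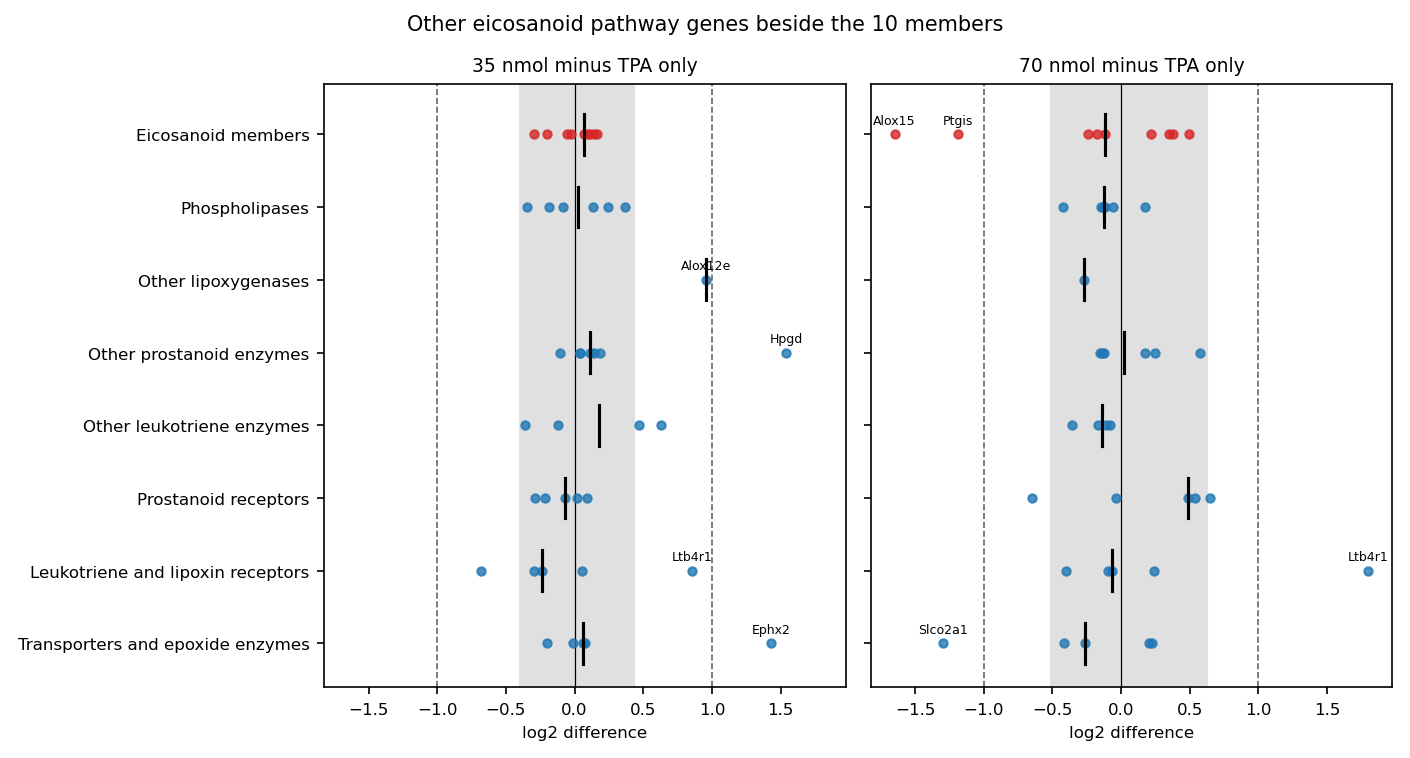
Difference from TPA only in log2 units at 35 nmol (left) and 70 nmol (right), 1 point per measured gene, for the eicosanoid synthesis genes (red, top row) and 7 lists of other pathway genes (blue). Black ticks are list medians, the grey band runs from the 5th to the 95th percentile of all measured genes, and dashed lines mark 2-fold. Ltb4r1 lies at 1.80 at 70 nmol, and Hpgd at 1.54 and Ephx2 at 1.43 at 35 nmol.

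Markers of the cells in the lavage differed between the arrays as well. Of 13 markers of large peritoneal macrophages, the resident cells of the cavity, 12 were measured at 70 nmol against TPA only. Their median was −0.85 log2, and 4 of 12 were at least 2-fold lower, against none at 35 nmol, where the median was −0.13. Gata6, counted among the 4 at −1.08, had other probes that ran from −1.02 to 0.56 at 70 nmol, so its probes disagree. The summed level of these 12 was 567, 573 and 388 times the 75th percentile on the TPA-only, 35 nmol and 70 nmol arrays, and Icam2, which was saturated, is left out of it. The measured markers of this list furthest from TPA only at 70 nmol were Garnl3 at −1.30, Nt5e at −1.15 and Itga6 at −1.11. General macrophage markers had a median of 0.12 at 70 nmol and −0.03 at 35 nmol. Monocyte and small peritoneal macrophage markers had a median of 0.63 at 70 nmol, with 1 of 7 at least 2-fold higher, F13a1 at 1.24, and a summed level of 100.1, 114 and 169.8 on the TPA-only, 35 nmol and 70 nmol arrays.

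Mast cells, which also make prostaglandins and cysteinyl leukotrienes, were represented by 8 of 10 markers, with the lineage markers Tpsab1 and Ms4a2 not well above background on any array. At 70 nmol 6 of the 8 were at least 2-fold lower than in TPA only, with Cma1 at −1.74 log2, Cpa3 at −1.73 and Mcpt4 at −1.70, and the median was −1.41. At 35 nmol 2 of 8 were at least 2-fold lower and the median was −0.76. The summed mast cell level was 35.4, 23.2 and 13.8 on the TPA-only, 35 nmol and 70 nmol arrays, so these markers stepped down at each dose. Ltc4s and Alox5ap, which mast cells also use, stood at 0.38 and 0.22 at 70 nmol, and at 0.02 and −0.14 with spike-in scaling. The part of mast cells in the values of these genes was not tested.

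Fibroblast markers went the other way, with 4 of 4 measured genes at least 2-fold higher at 70 nmol, a median of 1.73 log2, Dcn at 2.06, and a summed level of 9.59, 10.9 and 32.7 on the TPA-only, 35 nmol and 70 nmol arrays. Prostacyclin synthase is a known product of endothelium and stroma, among other cells. Of 6 endothelial markers, 4 (Cdh5, Kdr, Tek and Tie1) were not well above background on any array. The other 2 were measured on all 3 arrays, Pecam1 at −0.55 log2 at 70 nmol and −0.53 at 35 nmol against TPA only, and Vwf at 0.16 and −0.09. Their summed level was 0.719, 0.578 and 0.634 on the TPA-only, 35 nmol and 70 nmol arrays. Of 6 mesothelial markers, 2 were measured against TPA only. Msln stood at 0.68 at 70 nmol and 0.25 at 35 nmol, and Krt19 at 0.98 and −0.08. Of 6 platelet markers, relevant to thromboxane synthase, Pf4 alone was well above background, at 6.22, 6.39 and 6.47 on the TPA-only, 35 nmol and 70 nmol arrays. For eosinophils, a further source of 12/15-lipoxygenase in mice, the granule genes Prg2 and Epx were not well above background on any array, and Ccr3, Il5ra and Ear1 were well above it on all 3. These 3 differed from TPA only by 0.12, −0.51 and 0.94 log2 at 70 nmol and by 0.40, −0.29 and 1.46 at 35 nmol, with a summed level of 2.17, 2.76 and 2.25 on the TPA-only, 35 nmol and 70 nmol arrays. Of 8 neutrophil markers, 4 were measured against TPA only, and 3 of these were at least 2-fold lower at 35 nmol. At 70 nmol 2 of the 4 were at least 2-fold lower, Cxcr2 at −1.39 log2 and Lcn2 at −1.29. By contrast, 1 was at least 2-fold higher, S100a9 at 1.02. Erythroid markers were lowest at 35 nmol, with a summed level of 67.0, 11.6 and 35.3 on the TPA-only, 35 nmol and 70 nmol arrays. The part of these cell types in the differences of Alox15, Ptgis and the other synthesis genes was not tested.

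**Figure D4:**
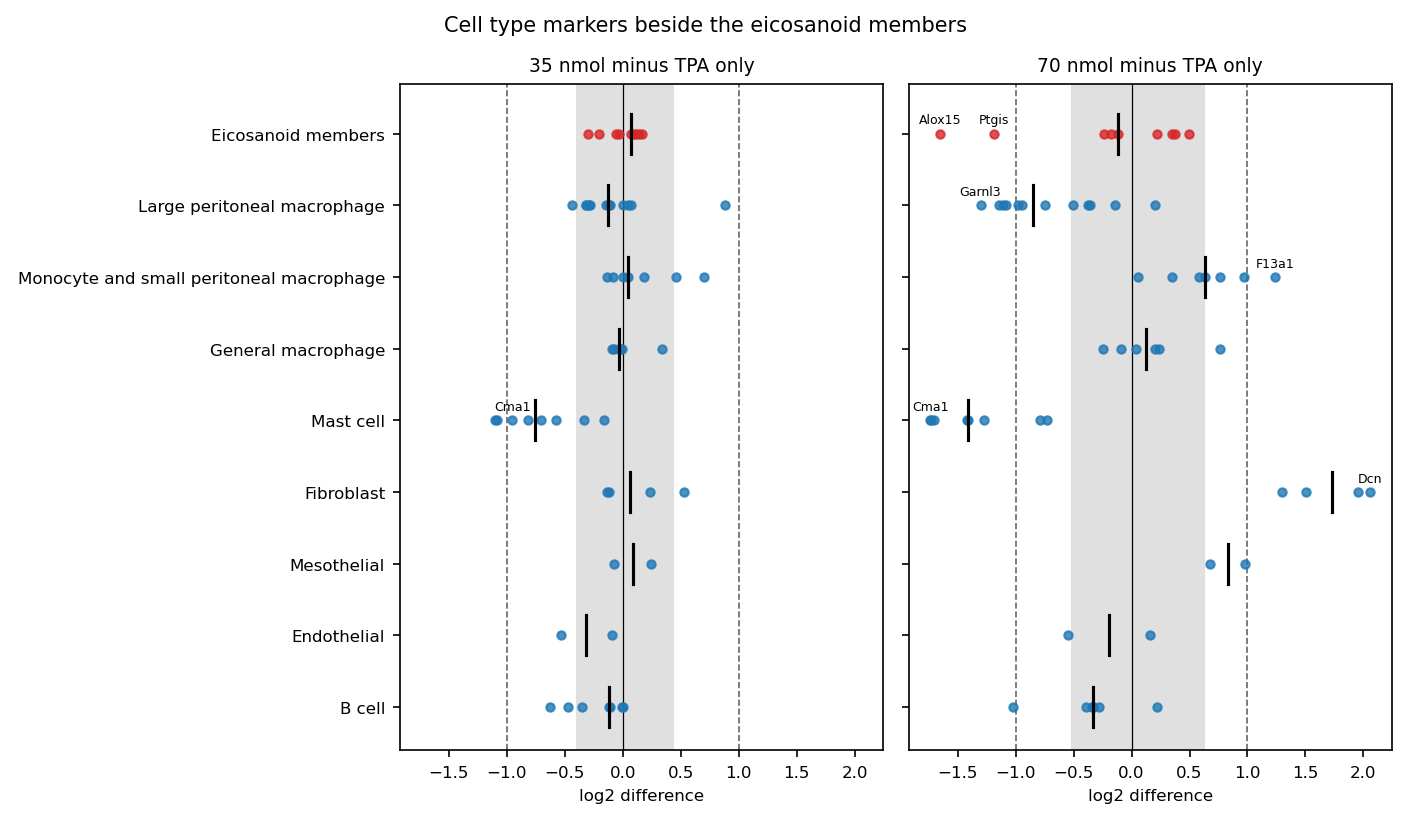
Difference from TPA only in log2 units at 35 nmol (left) and 70 nmol (right), 1 point per measured gene, for the eicosanoid synthesis genes (red) and 8 lists of cell type markers (blue). Black ticks are medians, the grey band runs from the 5th to the 95th percentile of all measured genes, and dashed lines mark 2-fold. At 70 nmol the medians are −0.85 for large peritoneal macrophage markers, −1.41 for mast cell markers and 1.73 for fibroblast markers.

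The genes whose pattern was most like that of Alox15 were sought among 11012 genes measured on all 3 arrays, by the distance between their differences from TPA only at 70 nmol and 35 nmol. The 5 nearest were Gnb3, Slc12a5, Zcchc14, Prss34 and Aqp9, at distances of 0.15 to 0.26 log2. Gnb3 differed by −1.50 at 70 nmol and −0.19 at 35 nmol, and Prss34, a serine protease of basophils and mast cells, by −1.62 and −0.43. On the 70 nmol array Prss34 and Zcchc14 stood at −3.10 and −3.07, near its lowest well-above-background level of −3.26. Alox15 stood at 4.66 there. The likeness rests on 2 differences from 1 shared control array.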

How the data were processed

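Each of the 3 samples is 1 Agilent 4x44k array with 1 dye. The deposited values are spot intensities from Agilent Feature Extraction 10.5.1.1, per the file headers, background-subtracted by that software (gProcessedSignal), and probe positions are on mm8, per the file headers. The authors also deposited a log2 value table: it equalled log2 of the processed signal minus a constant per array (8.00, 7.61 and 7.67 for TPA only, 35 nmol and 70 nmol) within 0.01 for 99.8 to 99.9% of probes well above background, so it is neither centred per gene nor turned in direction. Its column medians were −3.60, −3.74 and −3.78.

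Control spots and spots marked as outliers were left out, and repeated spots of a probe were averaged after log2 and scaling on the 75th percentile of each array. Probes were named through the RefSeq accession (24375 probes), the symbol (6301) or a unique synonym (2426) in a GRCm38.p6 gene table, and 8072 retained the array file's own name. For each gene, the brightest of the probes that were well above background on any array was used. The depth of an array has no count, and 1 array per group limits the precision. Named were all members, pathway genes at least 2-fold different in any comparison or otherwise up to 3 per list, up to 3 genes per marker list, and 5 genes nearest in pattern to the member with the largest difference at 70 nmol. Some further marker genes were named to show detection, saturation or disagreement between probes. Members and lists were chosen with earlier results of these data known. The counting steps were run on spots simulated from the TPA-only array with known changes and noise below the scanner error. That simulation held no variation between mice or hybridisations, so it checks the steps and not the findings. Promoter sequences are from RefSeq (GRCm38.p6), and 3 genes had none in that table. Alternatives used limma 3.58.1 (quantile, cyclic loess, normexp with an offset of 50), scaling on spike-ins or on the median of detected probes, looser and stricter filters, the mean over probes, the deposited table, and thresholds of 1.5-fold and 3-fold. Figures were drawn with matplotlib 3.10.9, and tables were computed with pandas 2.3.3 and numpy 2.4.6 (Python 3.11.15). No columns of other samples were used.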

Additional observations from a re-analysis of the deposited data

How the results depend on the processing

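No paired analysis was possible because each group is 1 array, and for the same reason leaving out a replicate was not possible. The counts of 9 measured genes past 2-fold stayed the same in every comparison under the 9 alternatives of scaling, background correction, filter, probe summary and source of values. They moved with the threshold: at 3-fold, 1 gene was lower at 70 nmol than in TPA only and 0 were lower at 70 nmol than at 35 nmol, and at 1.5-fold, 2 were lower at 70 nmol than at 35 nmol. Of 243 differences of single genes under those alternatives, 225 moved by less than the scanner error and 233 kept their sign. The 18 that moved by more were all under spike-in scaling. Many of the 243 could not move. Both filters left every member value as it was, and the deposited table is the same signal minus a constant per array. The mean over probes could change only Alox5 and Tbxas1, the genes with more than 1 measured probe. The tally therefore says little about how stable the values are. Counts over all genes moved by over 1.5 times under some settings, higher first and lower after. At 70 nmol against TPA only, 204 and 136 became 80 and 48 with normexp, 87 and 400 with spike-ins, 619 and 742 with the looser filter, and 145 and 81 with the stricter filter. At 35 nmol against TPA only, 143 and 38 became 55 and 10 with normexp, 71 and 251 with spike-ins, 577 and 541 with the looser filter, and 92 and 24 with the stricter filter. At 70 nmol against 35 nmol, 114 and 89 became 39 and 20 with normexp, 527 and 520 with the looser filter, and 75 and 48 with the stricter filter. The filters change which genes are tested, and spike-in scaling moves all genes of a comparison by the same amount. The cause of the shifts with normexp was not tested. Ptgs2 and 1 Tbxas1 probe have no measured level, because their signal was not well above background.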
